A study of Mus musculus with 4 samples.

Results

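The genes described here are 10 genes known for their roles in blood cell signalling and the blood cell cytoskeleton: Plek, Fermt3, Lax1, Lcp1, Lcp2, Vav1, Was, Rac2, Coro1a and Laptm5. They were selected on a list of names drawn up with the differences between the sorted populations already known, so their differences are described without a test. All 10 were on the array, out of 18193 genes with a probe set of 1 gene symbol, and together they had 25 such probe sets. For each gene the values are those of its brightest probe set by the mean over all arrays, and the others are given beside it.

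TT2 mouse embryonic stem cells were sorted into 2 populations on day 5 of differentiation on OP9, a bone marrow stromal line used to raise mesoderm and blood. All cells were heterozygous for a Venus reporter knocked into Etv2, so both populations carry 1 Venus allele, and both were sorted for Flk-1, the product of Kdr and a receptor for VEGF. The populations are named Flk-1+/Etv2- and Flk-1+/Etv2+ by the Venus signal and had 2 arrays each, numbered 1 and 2. The labels name 1 cell line and do not say whether the arrays came from separate cultures, so every SD, standard error and p-value below covers no more than the variation among these arrays and may be technical. Values are log2 expression values, and differences are Flk-1+/Etv2+ minus Flk-1+/Etv2-.

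Pleckstrin (Plek), the blood cell kindlin (Fermt3), the plastin Lcp1 and coronin 1A (Coro1a) join signals at the membrane to integrins and the actin cortex. In platelets and white blood cells, Syk family kinases phosphorylate adaptors such as Lcp2, which brings the exchange factor Vav1 to the membrane, where Vav1 loads small GTPases such as Rac2 and so feeds actin regulators of the Was type. Lax1 is a membrane adaptor that dampens antigen receptor signals, and Laptm5 is a lysosomal membrane protein that lowers receptor levels in lymphocytes. In the strict sense only Lax1 and Lcp2 are adaptors, and the other members are regulators or structural proteins of the same routes.

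Promoter sequences show what letters lie at the start sites of the members that stood higher in the Flk-1+/Etv2+ cells and of those that did not. RefSeq windows of 300 bases on GRCm38.p6, from 250 bases before to 50 bases after a start site, were matched by symbol for 9 of the 10 genes, in 12 windows, and Rac2 had no entry. Windows are printed 5′ to 3′ on the strand named. Capitals mark matches, on either strand, to CCGGAA and GAGGAA (cores bound by ETS factors), AACAGGAA (a joint FOX and ETS motif), AGATAA (recognised by GATA factors) and TGTGGT (recognised by RUNX factors). The first 4 windows belong to genes with large differences, and those of Vav1 and Laptm5 to genes with almost none.
Plek, chr11:17008669-17008968, - strand: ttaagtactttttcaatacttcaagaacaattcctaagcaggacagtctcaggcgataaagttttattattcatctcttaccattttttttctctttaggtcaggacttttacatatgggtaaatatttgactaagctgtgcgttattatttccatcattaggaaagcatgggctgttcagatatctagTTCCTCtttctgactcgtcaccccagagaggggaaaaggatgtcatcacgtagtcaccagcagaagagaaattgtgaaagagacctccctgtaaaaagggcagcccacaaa
Fermt3, chr19:7019420-7019719, - strand: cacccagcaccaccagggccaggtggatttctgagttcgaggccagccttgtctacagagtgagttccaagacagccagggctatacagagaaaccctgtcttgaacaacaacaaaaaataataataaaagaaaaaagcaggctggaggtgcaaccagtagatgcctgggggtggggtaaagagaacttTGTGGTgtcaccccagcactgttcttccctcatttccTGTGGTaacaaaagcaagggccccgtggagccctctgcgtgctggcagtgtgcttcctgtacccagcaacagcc
Lax1, chr1:133689967-133690266, - strand: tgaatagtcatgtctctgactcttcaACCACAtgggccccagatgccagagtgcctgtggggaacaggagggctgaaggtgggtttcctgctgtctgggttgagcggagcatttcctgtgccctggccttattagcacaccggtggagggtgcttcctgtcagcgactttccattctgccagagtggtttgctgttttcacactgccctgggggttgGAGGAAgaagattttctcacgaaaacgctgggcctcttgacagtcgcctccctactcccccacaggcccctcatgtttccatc
Lcp2, chr11:34046678-34046977, + strand: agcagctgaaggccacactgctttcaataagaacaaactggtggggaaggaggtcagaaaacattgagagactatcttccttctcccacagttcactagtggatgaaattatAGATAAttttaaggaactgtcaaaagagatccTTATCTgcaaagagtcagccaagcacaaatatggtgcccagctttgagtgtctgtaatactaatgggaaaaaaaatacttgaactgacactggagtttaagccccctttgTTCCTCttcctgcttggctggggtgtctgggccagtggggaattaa
Vav1, chr17:57278850-57279149, + strand: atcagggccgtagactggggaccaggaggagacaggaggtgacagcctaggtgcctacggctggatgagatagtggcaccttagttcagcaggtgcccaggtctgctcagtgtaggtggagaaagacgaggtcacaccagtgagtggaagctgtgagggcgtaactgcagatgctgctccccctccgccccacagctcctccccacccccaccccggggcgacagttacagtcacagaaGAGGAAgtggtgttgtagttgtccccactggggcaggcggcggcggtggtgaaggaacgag
Laptm5, chr4:130913066-130913365, + strand: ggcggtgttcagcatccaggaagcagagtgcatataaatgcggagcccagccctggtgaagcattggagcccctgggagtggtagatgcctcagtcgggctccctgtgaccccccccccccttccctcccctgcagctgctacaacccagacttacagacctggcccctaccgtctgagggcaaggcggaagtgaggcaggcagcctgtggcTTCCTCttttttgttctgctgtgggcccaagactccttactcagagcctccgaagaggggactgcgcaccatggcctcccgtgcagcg

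GAGGAA was present in 6 of the 12 member windows, and in 28.3% of all 32851 RefSeq windows of this length. It lay in a window of Plek, Lax1 and Lcp2, whose signal was higher in the Flk-1+/Etv2+ cells, and equally in those of Vav1 and Laptm5, whose signal was not, and of Was. Its first base was 61 bases before the start in Plek, 33 in Lax1, 38 in Laptm5 and 11 in Vav1. The Fermt3 window held TGTGGT at 61 and again at 24 bases before the start, a motif found for 3 members (Fermt3, Lax1 and Was) and in 16.8% of all windows. AGATAA occurred at 138 and 106 bases before the start of Lcp2 and in the upstream window of Lax1, against 11.2% of all windows. CCGGAA occurred in 1 window of Coro1a (14.9% of all) and AACAGGAA in that of Was (2.65% of all). Neither window of Lcp1, which was higher, held any of these motifs. These matches describe letters in a short window and say nothing about binding.

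Etv2 RNA was somewhat higher in the Flk-1+/Etv2+ cells, but the signal was high in both populations. Etv2 measured 12.03 and 11.87 on the Flk-1+/Etv2- arrays and 12.64 and 12.41 on the Flk-1+/Etv2+ arrays. The groups did not overlap, and the difference was 0.57 (SE 0.13, 1.49-fold, limma adjusted p = 0.185), which limma did not call. The name Flk-1+/Etv2- thus refers to the Venus signal and not to an absence of Etv2 RNA. Kdr measured 12.51 and 12.68 against 12.64 and 12.81. The array medians over all probe sets lay between 5.46 and 5.52. Where a value is called dim below, it lies under this median, and no detection call was used here.

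The 10 genes covered a wide range of differences. Plek, Fermt3, Lax1, Lcp1 and Lcp2 differed by 0.66 to 1.20, and the remaining 5 genes by -0.01 to 0.39. The line between Lcp2 and Was was not firm. With the probe sets averaged, Lcp2 differed by 0.30 and Was by 0.39. Without Flk-1+/Etv2+ array 1, Lcp2 differed by 0.81 and Was by 0.70. The median difference was 0.53, against 0.01 over all genes, and it was 0.35 when all probe sets of a gene were averaged. Both Flk-1+/Etv2+ arrays lay above both Flk-1+/Etv2- arrays for 8 of the 10 genes, as they did for 22.4% of all genes. Since the names were chosen on this contrast, nothing is read from that count, and for Coro1a and Was the separation was only 0.01 and 0.03. Of the 10, 4 had a mean of at least 6 (Plek, Fermt3, Lcp1 and Laptm5), and the others are faint signals on an array that compresses differences near background.

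**Figure D1:**
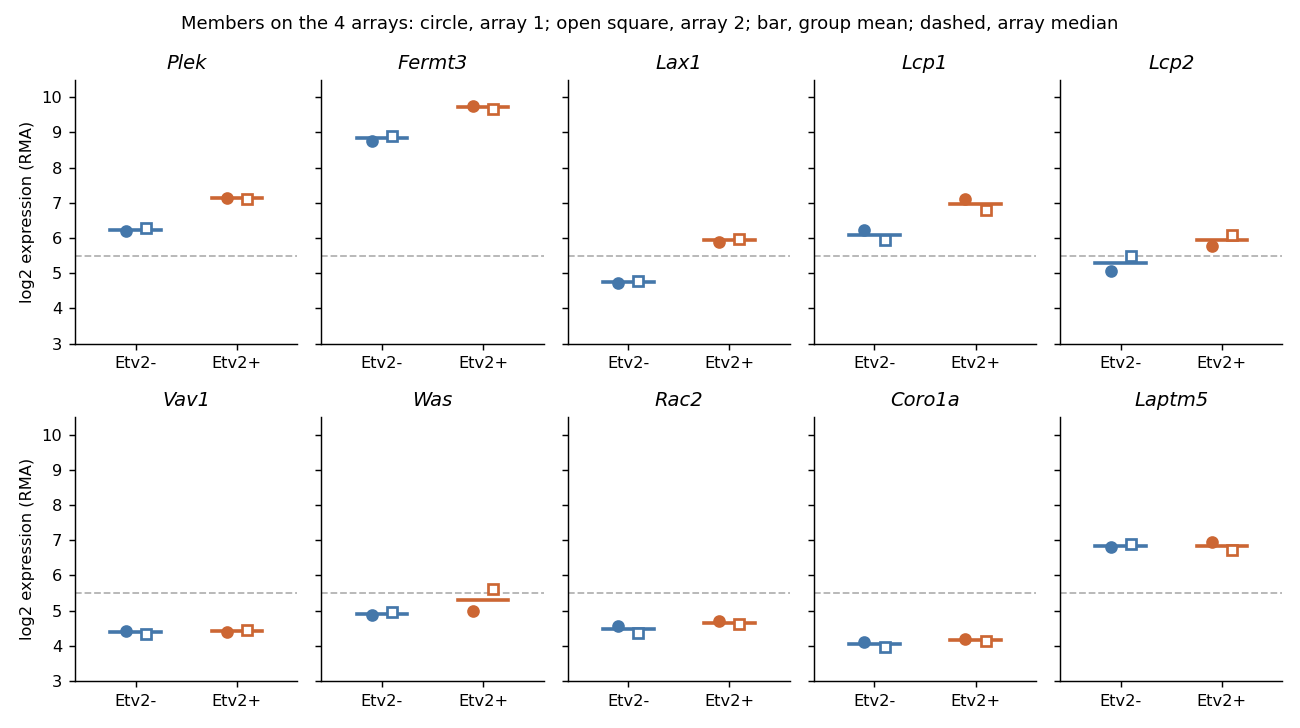
The log2 expression of the brightest probe set of each member on the 4 arrays, with Flk-1+/Etv2- in blue and Flk-1+/Etv2+ in orange. Circles are arrays numbered 1, open squares arrays numbered 2, bars the group means and the dashed line the array median. The arrays stand clearly apart for Plek, Fermt3, Lax1 and Lcp1 and overlap for Vav1 and Laptm5.

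Plek and Fermt3 act where membrane signals meet integrins. Plek, a substrate of protein kinase C in platelets and leukocytes, measured 6.19 and 6.28 on the Flk-1+/Etv2- arrays and 7.15 and 7.10 on the Flk-1+/Etv2+ arrays. The groups were separated by 0.82, more than the gap between the arrays of either group, and the difference was 0.89 (SE 0.09, 1.85-fold, n = 2 arrays per group). A second, dimmer Plek probe set gave nearly the same difference, 0.88, from 4.53 and 4.54 to 5.34 and 5.50. The third stayed near 4.00 on all arrays, with a difference of 0.16.

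Fermt3, the kindlin that blood cells need to switch on their integrins, measured 8.75 and 8.91 in the Flk-1+/Etv2- cells and 9.76 and 9.68 in the Flk-1+/Etv2+ cells. The lowest Flk-1+/Etv2+ array was 0.77 above the highest Flk-1+/Etv2- array, with a difference of 0.89 (SE 0.10, 1.85-fold, n = 2 per group). Its other probe sets differed by 0.26, 0.68 and 0.02, so the size depended on the probe set, and their mean with the brightest gave 0.46. The brightest probe set is of a type, marked _s_at, that can also bind related transcripts.

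Lax1, the membrane adaptor of lymphocytes, measured 4.71 and 4.77 in the Flk-1+/Etv2- cells and 5.90 and 5.97 in the Flk-1+/Etv2+ cells. This was the largest difference of the 10 and the only one of at least 2-fold, at 1.20 (SE 0.09, 2.29-fold, n = 2 per group). Arrays of a group lay within 0.07 of each other, and 1.13 separated the groups. The Flk-1+/Etv2- values are dim, Lax1 has a single probe set, and the size is therefore uncertain.

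Lcp2 is the cytosolic adaptor that links Syk family kinases to Vav proteins and phospholipase C gamma. It measured 5.07 and 5.49 in the Flk-1+/Etv2- cells and 5.78 and 6.09 in the Flk-1+/Etv2+ cells, a difference of 0.66 (SE 0.19, 1.58-fold, n = 2 per group). Without Flk-1+/Etv2- array 1 the difference was 0.45, and without array 2 it was 0.86. The groups did not overlap, but the gap between them, 0.30, was no larger than the gap between the arrays within either group. The second Lcp2 probe set, at 3.71 and 3.76 against 3.72 and 3.63, did not separate the populations. Averaging both probe sets gave 0.30.

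Among the actin proteins, the bundling protein Lcp1 stood apart from Coro1a. Lcp1 measured 6.24 and 5.95 in the Flk-1+/Etv2- cells and 7.12 and 6.81 in the Flk-1+/Etv2+ cells, a difference of 0.87 (SE 0.16, 1.83-fold, n = 2 per group). In both populations array 1 read higher than array 2, and within each array number the difference was 0.88 and 0.86. Its second probe set gave 0.31. Coro1a, an actin-binding protein of leukocytes, measured 4.12 and 3.97 against 4.19 and 4.13, so that its groups were separated by only 0.01 (difference 0.12, SE 0.10). Without Flk-1+/Etv2- array 2 or array 1 the difference was 0.04 or 0.19, and averaging the probe sets gave 0.22. All 3 of its probe sets were dim on every array.

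Vav1, Rac2 and Was were read on faint signals. Vav1 and Rac2 were dim on every array, and Was on all but Flk-1+/Etv2+ array 2. Small differences here are therefore not read as steps that stayed the same. Vav1, the GTPase exchange factor of blood cells, measured 4.43 and 4.33 in the Flk-1+/Etv2- cells and 4.40 and 4.45 in the Flk-1+/Etv2+ cells. These ranges overlapped, with a difference of 0.05 (SE 0.09, n = 2 per group). The second Vav1 probe set lay at 2.83 on average, with overlapping ranges and a difference of 0.13. Rac2, the Rac GTPase of blood cells, measured 4.56 and 4.37 against 4.69 and 4.63, a difference of 0.20 (SE 0.11). Without Flk-1+/Etv2- array 2 or array 1 the Rac2 difference was 0.10 or 0.29. The second Rac2 probe set, at 3.54 and 2.95 against 3.57 and 3.24, overlapped between the populations. With the probe sets averaged, Rac2 differed by 0.18 and its arrays were no longer apart. Was, which couples Cdc42 to branched actin, measured 4.86 and 4.97 against 5.00 and 5.61. Its difference of 0.39 (SE 0.22) rested on Flk-1+/Etv2+ array 2: without that array it was 0.09, and without Flk-1+/Etv2+ array 1 it was 0.70.

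The populations overlapped for Laptm5, although its probe set was not dim. It measured 6.81 and 6.88 in the Flk-1+/Etv2- cells and 6.94 and 6.72 in the Flk-1+/Etv2+ cells, a difference of -0.01 (SE 0.11, n = 2 per group). Of its other 4 probe sets, 3 overlapped between the populations. The exception, at 4.08 and 3.91 against 4.54 and 4.59, differed by 0.58, and it is dim and of a type, marked _x_at, that can bind unrelated transcripts. The sign of the Laptm5 difference turned under 5 alternatives, with values of 0.01 to 0.17. Its arrays were apart and higher when the probe sets were averaged (0.17) and without Flk-1+/Etv2+ array 2 (0.10), and apart and lower without Flk-1+/Etv2+ array 1 (-0.12), so no direction is given for it.

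Over all 25 probe sets, both Flk-1+/Etv2+ arrays were above both Flk-1+/Etv2- arrays for 16, the ranges overlapped for 9, and the reverse order occurred for 0. Over all genes, read on 1 probe set each, 22.4% had the first order and 17.0% the reverse. As with the count over genes, nothing is read from this one. Plek, Fermt3, Lax1 and Lcp1 kept differences of at least 0.46 under every alternative that held them. Their ranges were 0.65 to 0.93, 0.46 to 0.97, 1.16 to 1.24 and 0.59 to 1.02, in that order. The range was 0.30 to 0.86 for Lcp2. Lax1, with a mean of 5.34 and a single probe set, was left out by the filter at a mean of 6. Averaging probe sets could not move it. These ranges are therefore no measure of stability. Given their standard errors, the differences of Plek, Fermt3 and Lcp1 cannot be ordered among themselves, and neither can those of Vav1, Rac2, Coro1a and Laptm5. Nor can those of Lcp2 and Was be ordered, at standard errors of 0.19 and 0.22.

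**Figure D2:**
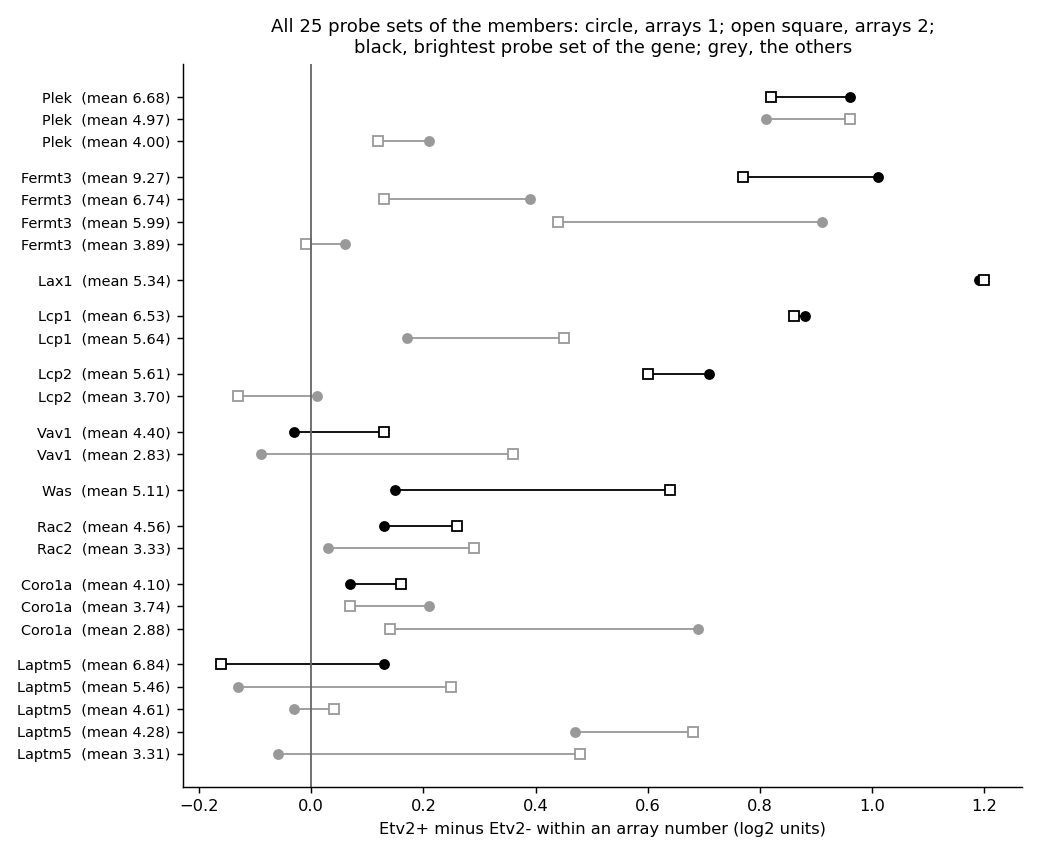
The difference between the populations in log2 units for each of the 25 probe sets, within arrays numbered 1 (circles) and within arrays numbered 2 (open squares). The brightest probe set of a gene is black, the others grey, and the mean over the 4 arrays follows each name. The brighter 2 probe sets of Plek agree in size at 0.89 and 0.88, while those of Fermt3 spread from 0.02 to 0.89.

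Relatives of the members were read on the same arrays. Some are expressed in many tissues, and others, such as Lat, are adaptors of blood cell receptors. Of 22 relatives measured, 0 passed an adjusted p of 0.05 in limma, as was the case for all 18193 genes (0% called). At an unadjusted limma p under 0.05 there were 3 higher (Vav3, Lat and Plek2) and 4 lower (Pag1, Lat2, Wasf1 and Laptm4b), where 7.07% of all genes were higher and 4.64% lower by that rule. The relatives had a median difference of 0.08.

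In the Vav family the populations stood apart for the relative Vav3. Vav3, an exchange factor of the same family found in many cell types, measured 8.61 and 8.59 in the Flk-1+/Etv2- cells and 9.71 and 9.66 in the Flk-1+/Etv2+ cells. The difference was 1.08 (SE 0.09, 2.12-fold, n = 2 per group, limma adjusted p = 0.067), and its other probe sets gave 1.21 and 0.92. When limma was run with a variance trend and robust settings, 112 genes were called (0.616% of all), and Vav3 was the only one of the 103 genes in the relative and pathway lists among them. Vav2 measured 8.70 and 8.43 against 8.83 and 8.51, a difference of 0.10 (SE 0.16). Vav1 was dim on all arrays, so its difference is not set against that of Vav3.

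For Fermt3 and Lcp1 the member's difference was larger than the relative's on the brightest probe sets. Fermt2, the widely expressed kindlin, measured 11.34 and 11.26 against 11.47 and 11.49, a difference of 0.18 (SE 0.09), which leaves 0.71 between Fermt3 and Fermt2. Plek2, the relative of Plek, differed by 0.28 (SE 0.10) but was dim on all arrays, so its difference is not set against that of Plek. The plastins Pls1 and Pls3 differed by 0.10 (SE 0.12) and 0.05 (SE 0.15), which were 0.77 and 0.82 below Lcp1. These gaps had the same sign within both array numbers, and they were not tested because the members were chosen on this contrast. Their size depended on the probe set, and for Fermt3 against Fermt2 so did the order. The other probe sets differed by 0.26, 0.68 and 0.02 for Fermt3, by 0.23 and -0.23 for Fermt2, and by 0.31 for Lcp1.

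The membrane adaptors related to Lax1 had differences of both signs. Lat, the adaptor that assembles T cell receptor and platelet collagen receptor signals, measured 6.95 and 7.26 against 7.74 and 7.76, a difference of 0.64 (SE 0.13, limma adjusted p = 0.164). Pag1, which recruits the inhibitory kinase Csk, measured 7.82 and 7.82 against 7.47 and 7.23, a difference of -0.47 (SE 0.12, adjusted p = 0.224 in limma). Its next brightest probe set gave 0.01, and the dim ones gave -0.28 and -0.06. Lat2 was dim, with a difference of -0.43 (SE 0.15), and Sit1, at 0.13 (SE 0.16), was dim as well. Neither Blnk nor Clnk, the relatives of Lcp2, was above the array median on any array.

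Relatives of Rac2, Was, Coro1a and Laptm5 differed by -0.34 to 0.30. Rac1, the Rac of nearly all cells, measured 11.51 and 11.43 against 11.59 and 11.65, a difference of 0.15 (SE 0.09). Rac3 differed by -0.15 (SE 0.21). Wasl, Wasf1 and Wasf2, which relay GTPase signals to branched actin, differed by -0.09 (SE 0.11), -0.34 (SE 0.10) and 0.20 (SE 0.10). Coro1b, Coro1c and Coro2a differed by -0.12 (SE 0.11), 0.30 (SE 0.16) and 0.04 (SE 0.09). Laptm4a and Laptm4b, lysosomal proteins found in many tissues, differed by -0.15 (SE 0.12) and -0.26 (SE 0.09).

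**Figure D3:**
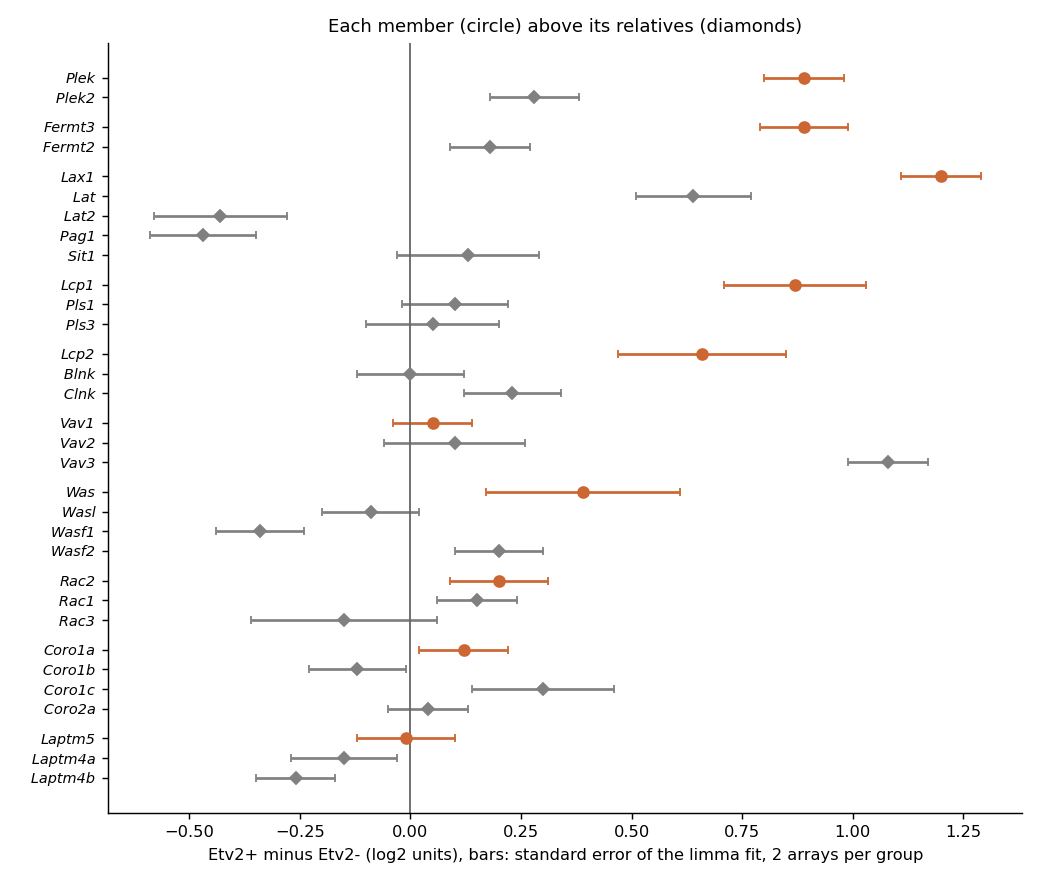
The difference between the populations in log2 units for each member (orange circle) and, below it, its relatives (grey diamonds), with bars for the standard error of the limma fit over 2 arrays per group. Vav3, at 1.08, is the relative with the largest difference. Lax1 is at 1.20, but it was dim in the Flk-1+/Etv2- cells. Lat2 and Sit1 were dim on all arrays, so Lax1 is not ranked against them.

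The wider pathway was read in 3 lists that exclude the members: receptor-proximal kinases, phosphatases and adaptors, actin and GTPase regulators of blood cells, and genes of integrin activation and platelets. In limma 0 of their 36, 26 and 24 measured genes passed an adjusted p of 0.05. The first list shares 5 genes with the relatives (Blnk, Lat, Lat2, Pag1 and Sit1). The list medians were 0.01, 0.09 and 0.04, close to 0.01 over all genes.

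In the receptor-proximal list 7 genes had both Flk-1+/Etv2+ arrays on top and 6 had both at the bottom, against 22.4% and 17.0% of all genes. At an unadjusted limma p under 0.05, of 36 genes 5 were higher, Grap, Lat, Inpp5d, Sh2b3 and Plcg2, and 3 lower, Pag1, Lat2 and Prkcq. By that rule 7.07% of all genes were higher and 4.64% lower. Grap, a Grb2-related adaptor of blood cells, measured 5.59 and 5.80 in the Flk-1+/Etv2- cells and 6.65 and 6.52 in the Flk-1+/Etv2+ cells, a difference of 0.89 (SE 0.12, limma adjusted p = 0.0933). Inpp5d, the inositol phosphatase of blood cells, differed by 0.60 (SE 0.16). Syk, the kinase upstream of Lcp2, measured 5.25 and 4.98 against 5.22 and 5.31, and Plcg2, a phospholipase downstream of it, 7.93 and 8.08 against 8.34 and 8.44. Syk, Plcg2, Sh2b3 and Prkcq are named here after their values were seen.

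In the actin and GTPase list, 8 genes had both Flk-1+/Etv2+ arrays on top and 6 at the bottom, and at an unadjusted limma p under 0.05 there were 4 higher and 1 lower, of 26. Over all genes the shares on top and at the bottom were 22.4% and 17.0%, and those higher and lower at that p were 7.07% and 4.64%. Arhgdib, an inhibitor of small GTPases in blood cells, measured 6.59 and 6.40 against 7.16 and 7.08, a difference of 0.62 (SE 0.11, limma adjusted p = 0.131). Swap70, a Rac-binding protein, differed by 0.57 (SE 0.10) and the GTPase exchange factor Arhgef1 by 0.41 (SE 0.10). Wipf1, the partner that stabilises the Was protein, measured 8.48 and 9.39 against 9.06 and 9.89, so its difference of 0.54 (SE 0.41) was smaller than the gap between arrays of either population.

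In the integrin and platelet list, 10 of 24 genes had both Flk-1+/Etv2+ arrays on top and 3 at the bottom, with 6 higher and 0 lower at an unadjusted limma p under 0.05. The same rules took 22.4% and 17.0%, and 7.07% and 4.64%, of all genes. Clec1b, a platelet receptor that signals through Syk and Lcp2, measured 7.52 and 7.19 in the Flk-1+/Etv2- cells and 9.05 and 8.64 in the Flk-1+/Etv2+ cells. Its difference of 1.49 (SE 0.19, 2.81-fold, n = 2 per group, limma adjusted p = 0.0885) was the largest in the pathway lists. Rasgrp2, the Rap exchange factor of platelets, differed by 0.78 (SE 0.11), the integrin subunit Itga2b by 0.70 (SE 0.11) and its partner Itgb3 by 0.55 (SE 0.09). Of the 24 genes, 6 had a mean of at least 6, and later platelet genes such as Pf4 and Gp9, named after their values were seen, lay under the array median on all arrays.

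**Figure D4:**
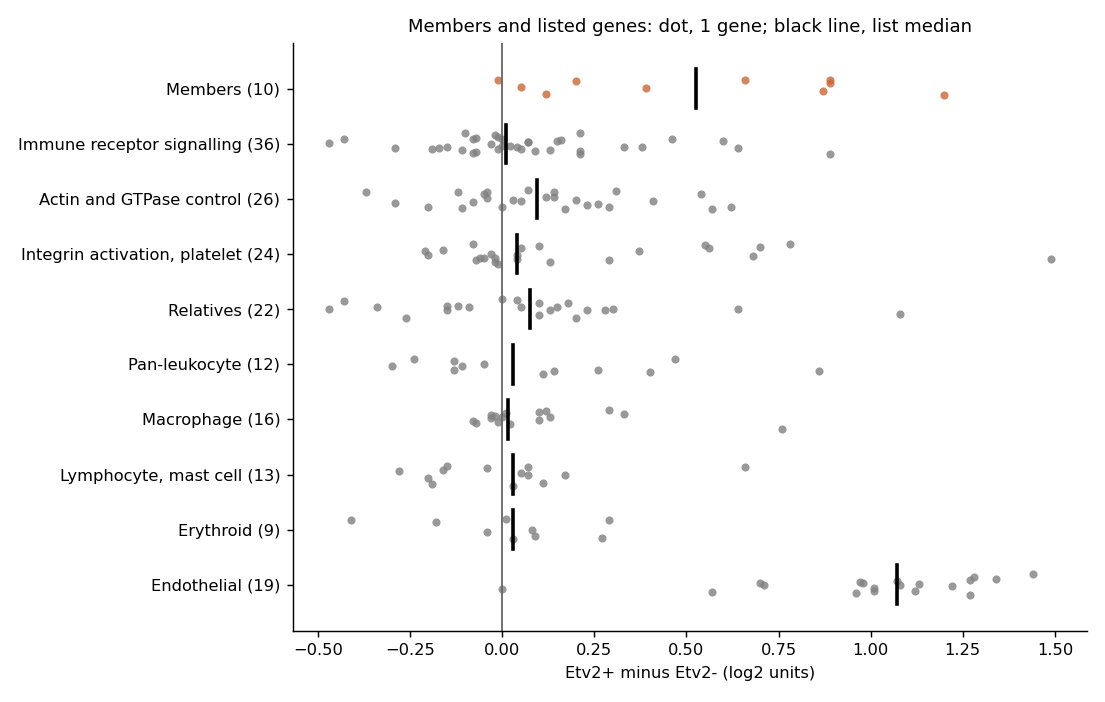
The difference between the populations in log2 units for each member (orange) and each measured gene of the pathway, relative and marker lists (grey), with a black line at the list median and the number of genes in brackets. The members have a median of 0.53, the pathway and blood lists lie near 0.01 to 0.09, and the endothelial list has a median of 1.07.

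Markers of the cells that the genes are named for were read beside them. Of 12 pan-leukocyte markers, 4 had both Flk-1+/Etv2+ arrays on top and 3 at the bottom, against 22.4% and 17.0% of all genes, with a mean level of 5.69 and 5.80 on the Flk-1+/Etv2- arrays and 5.85 on each Flk-1+/Etv2+ array. Ptprc, the defining leukocyte surface phosphatase, measured 3.30 and 3.39 against 3.12 and 2.97, near the bottom of the scale, whose lowest value is 2.16. Ikzf1, a transcription factor of blood progenitors, measured 7.54 and 7.86 against 8.38 and 8.75. Myb and Spi1, transcription factors of blood progenitors and myeloid cells, differed by 0.47 (SE 0.11) and 0.26 (SE 0.09), and Runx1, needed for blood to emerge, by 0.14 (SE 0.31). Cd52, a leukocyte surface protein named after its value was seen, differed by 0.40, and it was the fourth marker with both Flk-1+/Etv2+ arrays on top. The 16 macrophage markers had mean levels of 4.64 and 4.57 against 4.75 and 4.66, with Adgre1 at 3.28 to 3.46. Both Flk-1+/Etv2+ arrays were on top for 4 of them and at the bottom for 0, beside the same shares of all genes. Mrc1, which some endothelium also expresses, differed by 0.76 (SE 0.13) and Lst1 by 0.33 (SE 0.15). The 13 lymphocyte and mast cell markers had mean levels of 4.43 to 4.53 and the 9 erythroid markers of 5.00 to 5.08. Both Flk-1+/Etv2+ arrays were on top for 1 and at the bottom for 2 of the former, and for 2 and 2 of the latter (22.4% and 17.0% of all genes). Kit, a receptor that many progenitors share, differed by 0.66 (SE 0.10) and Epor, the erythropoietin receptor, by 0.09 (SE 0.11). Kit and Epor are named because they reached a mean of 6.

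Endothelial markers were higher in the same cells as Plek, Fermt3, Lax1, Lcp1 and Lcp2. Their mean level was 7.51 and 7.56 on the Flk-1+/Etv2- arrays and 8.52 and 8.57 on the Flk-1+/Etv2+ arrays, with both Flk-1+/Etv2+ arrays on top for 18 of 19 (22.4% of all genes) and an unadjusted limma p under 0.05 for 18 (7.07% higher over all genes). The largest differences were those of Fli1, Tek, Mmrn2 and Flt4, at 1.44, 1.34, 1.28 and 1.27. Mesoderm markers had mean levels of 8.98 and 9.01 against 7.78 and 7.71, with both Flk-1+/Etv2+ arrays at the bottom for all 13 (17.0% of all genes), and Pcdh8, Dll1, Dll3 and Pdgfra differed by -2.20, -1.89, -1.83 and -1.65. In sorted bulk RNA, a change in the number of cells of a type and a change in RNA per cell cannot be told apart, and the part of either in the members' differences was not tested. Markers of the OP9 stroma were higher on the arrays numbered 1, with mean levels of 7.05 and 6.42 against 6.90 and 6.09. Adipoq, Cxcl12, Pdgfrb and Col1a2 differed between the populations by -0.98 (SE 0.69), -0.63 (SE 0.11), -0.51 (SE 0.34) and -0.34 (SE 0.80). The gap between array numbers had the same sign for Lcp1 and the opposite sign for Lcp2, and its part in the members' spread was not tested.

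Genes whose profiles over the 4 arrays lay nearest to Plek and Fermt3 were found among genes with a mean of at least 6, by the Euclidean distance between profiles centred on their own means. Nearest to Plek were Batf3, at a distance of 0.045, Ppp1r13b at 0.06 and Artn at 0.063. Nearest to Fermt3 were Batf3 again at 0.024, Grap at 0.046 and Slc7a8 at 0.096. Batf3 measured 6.77 and 6.90 against 7.76 and 7.67. With 4 points, likeness of this kind describes these arrays only.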

How the data were processed

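Total RNA of 4 samples was labelled with biotin for Affymetrix 3′ arrays, per the labels' protocols. Per the submitters' processing notes, the authors used RMA and R 2.8.0 to make the deposited log2 values, 1 per probe set. Background correction and normalization by RMA make the values relative, and differences near background are compressed. The log base was taken from the values, 2.16 to 14.93. The number of arrays limits the precision.

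Of 45101 probe sets, 64 were controls, 34945 had 1 symbol in the platform annotation, 932 had several and 9160 were not listed in it. Symbols were checked through Entrez identifiers against RefSeq (34741 matched, 0 changed). The brightest probe set represented each of 18193 genes. The populations were compared with limma 3.58.1 in R 4.3.3 (lmFit and eBayes, group as the only term, two-sided, Benjamini-Hochberg over all genes, threshold 0.05), with 2 residual and 2.68 prior degrees of freedom. The fit was tested on simulated data. Standard errors are those of this fit. Alternatives averaged the probe sets of a gene, kept genes whose mean reached 6, fitted a variance trend robustly, repeated quantile normalization, centred each array on its median, blocked on the array number, or left 1 array out.

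The members and lists were chosen with earlier results of these data known. Named genes were all members, all measured relatives, Etv2 and Kdr, the 4 largest absolute differences per other list among genes reaching a mean of 6 in either group, and the 3 nearest profiles to Plek and Fermt3. Genes outside this rule are marked, or are markers that define a cell type. Listed genes with no match among the 18193 were not used here. Figures were drawn with matplotlib 3.10.9.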

Additional observations from a re-analysis of the deposited data

How the results depend on the processing

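The median difference over the members, 0.53, was 0.35 with the mean over probe sets and 0.88 among the 4 members with a mean of at least 6, of which 3 had arrays apart in the higher direction. Leaving out each array in turn gave 0.36 to 0.71 for this median and 8 to 9 members with arrays apart in the higher direction. With 1 array left in a group, arrays stand apart more readily. The 22.4% of all genes found with 2 arrays per group is therefore no background for these counts, and nothing is read from them. Genes called by limma numbered 79 when only the 10179 genes whose mean reached 6 were fitted and 112 with a trend and robust estimation, and under each of these settings 1 gene of the relative and pathway lists, Vav3, was called. All other settings called 0 genes. Of 84 differences of single members under the alternatives, 78 moved by no more than 1 SD between arrays, and the 6 that moved further all came from averaging probe sets. With 2 arrays per group, leaving 1 out cannot move a difference by more than this SD. The block on the array number and the mean filter leave a difference as it is. The 78 are therefore no measure of stability, and only averaging, quantile normalization and centring could exceed the bound. The sign turned 6 times, 5 times for Laptm5 and without Flk-1+/Etv2- array 2 for Vav1 (-0.01). With the array number as a replicate block 0 genes were called. In this balanced design the block cannot change a difference or the order of the arrays. The median of 0.53 and the 8 members with arrays apart were therefore fixed in advance. The labels do not say that equal numbers share a culture, and the deviations of equally numbered arrays correlated at 0.543 across genes, which are not independent. Alternatives for the members' differences do not include the trend, which leaves a difference as it is.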
